A study of Mus musculus with 2 samples.

Results

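The capillary endothelial cells of the hippocampus were examined in aged C57BL/6 mice fed a control diet or a diet with tomatidine, the steroidal alkaloid that remains when the sugars are removed from the tomato compound tomatine. Mice of both sexes were 21 months old when feeding began and were treated for 3 months. The control group received standard chow and the tomatidine group received the chow with 0.05% tomatidine. Hippocampi of 4 mice were pooled into 1 library per group, fixed, and profiled with a probe-based single-cell RNA assay, in which pairs of probes are ligated on their target RNA and counted with unique molecular identifiers (UMIs). The control library held 15912 cells and 279525565 UMIs, and the tomatidine library held 15185 cells and 259059908 UMIs. With 1 library per group no difference between the diets could be tested, and every interval below is a 95% interval for counting error only.

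Capillary cells were selected on measured UMIs. A cell with at least 500 UMIs was taken as endothelial when Cldn5, Flt1, Pecam1 and Cdh5 together had at least 5 UMIs, at least 15 per 10000 UMIs of the cell, and 3 or more times the UMIs of Mog, Aqp4, Csf1r, Slc17a7, Pdgfrb and Col1a1, which mark other brain cells. It was called capillary when Mfsd2a, Rgcc, Slc16a1 and Spock2 together had more UMIs than the arterial genes Gkn3, Bmx, Sema3g and Hey1 and more than the venous genes Vwf, Slc38a5, Vcam1 and Lrg1. This rule found 363 capillary cells among 31097 cells, of which 155 were control cells and 208 tomatidine cells. The libraries shared 292 cell barcodes, and no barcode was shared between their capillary cells. Capillary cells had a median of 8975 UMIs in control and 7347 in tomatidine cells, against 7556.5 and 7891 over all cells of each library. The summed UMIs of the capillary cells were 1954116 and 2263113.

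Brain capillaries form most of the blood-brain barrier. Their endothelial cells are sealed by tight junctions, take up glucose, amino acids and lipids through dedicated transporters, and suppress vesicle traffic across the cell. They lie on a basement membrane shared with pericytes and astrocyte endfeet, and Wnt ligands from neighbouring cells maintain the barrier programme. They also respond to interferons, which raise antiviral genes and the machinery that presents peptides on MHC class I.

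Few members lay near the limits on endothelial level and on the lead of capillary genes, but more lay near the exclusion of other cell types. The lowest endothelial marker level among capillary cells was 16.4 per 10000 UMIs in control and 15.99 in tomatidine cells, against medians of 80.9 and 87.6. The highest level among cells kept out by this limit alone was 7.1 in control and 13.3 in tomatidine cells. Capillary genes led by a single UMI in 2 control and 4 tomatidine cells, and 2 and 8 endothelial cells were left out because capillary genes tied with another vessel type. The exclusion of other cell types removed 46 control and 43 tomatidine cells that otherwise met the rule.

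The rule's own genes describe the selection and test nothing. Mfsd2a, which carries omega-3 lipids into the brain and restrains transcytosis, had 657 UMIs in control capillary cells and 570 in tomatidine capillary cells, levels of 336 and 252 UMIs per 1000000 UMIs of these cells (CPM). It was found in 80.0% and 65.9% of capillary cells, and in 6.5% and 7.67% of oligodendrocytes, which should lack it and had median depths of 5295 and 4987.5 UMIs. Rgcc, a cell cycle regulator used here as a capillary marker, had 280 CPM in control and 269 CPM in tomatidine cells. Spock2 had the most UMIs of the capillary genes by far, 9102 in control and 10419 in tomatidine capillary cells. Its level there was 4658 and 4604 CPM, against 852 and 880 CPM in cells outside the endothelial gate. It was found in 47.0% and 50.3% of oligodendrocytes, and Slc16a1 in 51.8% and 51.5%. Cldn5, the main claudin of brain endothelial tight junctions (chromosome 16, 18776847 to 18778262, plus strand, mm10), had 3262 and 3645 CPM, and Flt1, a VEGF receptor, had 3074 and 3041 CPM.

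The endothelial label was checked with 29 endothelial genes that the rule did not use. Each of the 29 had a level at least 10 times higher in capillary cells than in cells outside the endothelial gate, in both libraries. The median was 179-fold in control and 168-fold in tomatidine cells. The smallest ratio was that of Cd34, 13.3-fold and 14.5-fold, and the largest that of Robo4, a guidance receptor of endothelium, 442-fold and 480-fold. Because the cells were chosen by endothelial genes, these ratios describe the selection.

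Capillary cells were 0.974% of the control library (0.827 to 1.14) and 1.37% of the tomatidine library (1.19 to 1.57), a difference of 0.396 points (0.157 to 0.639). Among endothelial cells the order was the opposite. They were 155 of 176 endothelial cells in control, 88.1% (82.3 to 92.5), and 208 of 277 in tomatidine, 75.1% (69.6 to 80.1), a difference of −13.0 points (−19.7 to −5.63). Arterial cells made up 2.27% of control (0.623 to 5.72) and 7.22% of tomatidine endothelial cells (4.47 to 10.9), and venous cells 7.95% (4.42 to 13.0) and 14.8% (10.8 to 19.5). Endothelial cells of all 3 types were thus more frequent in the tomatidine library, and the arterial and venous cells more so than the capillary cells.

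**Figure D1:**
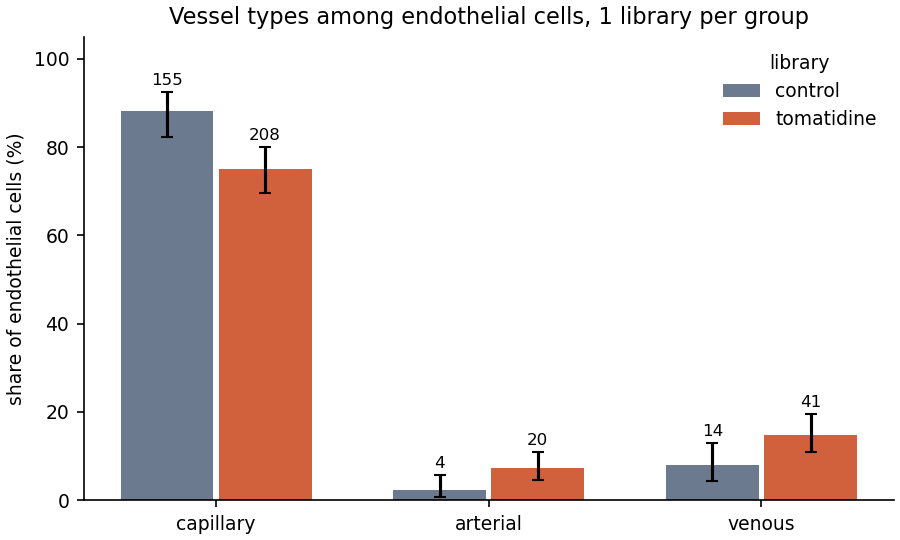
Share of endothelial cells (percent, vertical axis) called capillary, arterial or venous in the control and tomatidine libraries, with exact 95% binomial intervals for counting error and the number of cells above each bar. Capillary cells were 88.1% of control and 75.1% of tomatidine endothelial cells, while the arterial and venous shares were larger in the tomatidine library.

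Capillary cells carried RNA of the cells that touch them, and this bears on every level below. Pericyte genes other than Pdgfrb summed to 7915 CPM in control and 8453 CPM in tomatidine capillary cells, against 161 and 211 CPM in the whole libraries, with all 10 genes detected and Rgs5 the most abundant at 3419 and 3499 CPM. At least 20 pericyte UMIs per 10000 were found in 74.2% of control and 69.7% of tomatidine capillary cells. Astrocyte genes, led by the glutamate transporter Slc1a2, summed to 8211 and 6660 CPM, also above the whole-library levels of 2595 and 3148 CPM. Haemoglobin and other red cell genes, led by Hbb-bs, had 6017 and 3214 CPM against 123 and 65.9 CPM in the whole libraries.

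Markers of oligodendrocytes, neurons and microglia were below their whole-library levels. Oligodendrocyte genes had 2624 CPM in control and 3318 CPM in tomatidine capillary cells. Neuron genes, led by Snap25, had 1989 and 1896 CPM, microglia genes 355 and 263 CPM, and fibroblast genes, led by Col1a2, 62.9 and 80.9 CPM. Smooth muscle genes, led by Mylk, were above their whole-library levels of 32.4 and 61.7 CPM, with 596 and 555 CPM in capillary cells, and Cnn1, a contractile gene that defines smooth muscle, was at 0 in both libraries. Choroid plexus genes had 4208 CPM in control and 248 CPM in tomatidine capillary cells, against 4158 and 870 CPM in the whole libraries. In control capillary cells 82.2% of their choroid plexus UMIs came from 1 cell. Between the diets, all 9 astrocyte, 7 microglia and 4 red cell genes with at least 20 UMIs were lower in the tomatidine library, and all 8 oligodendrocyte and 4 fibroblast genes and 8 of 10 pericyte genes were higher. The part of these cells in the results that follow was not tested.

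**Figure D2:**
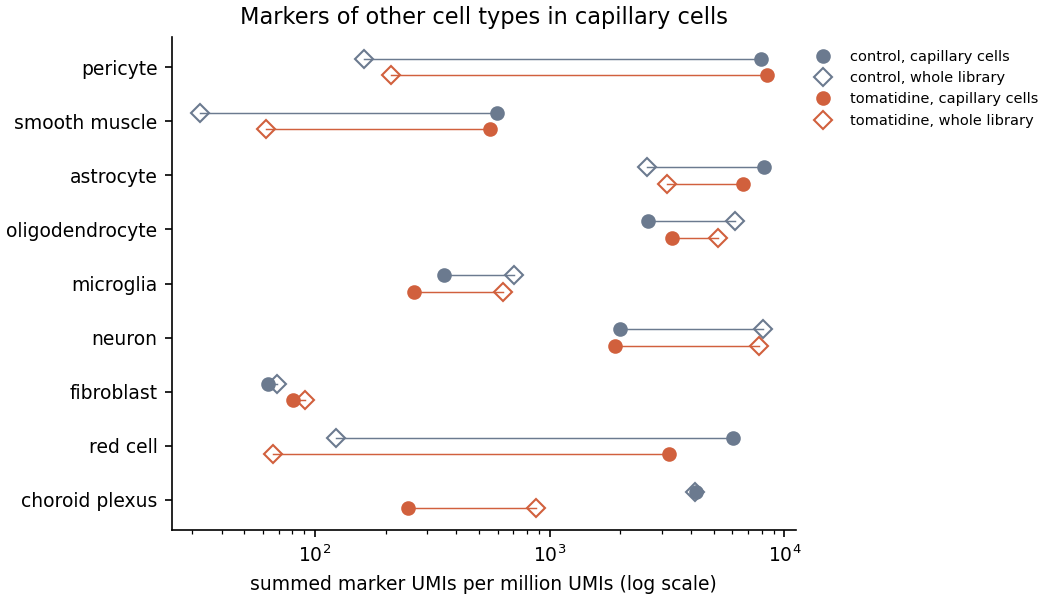
Summed marker UMIs of 9 other cell types per 1000000 UMIs (horizontal axis, log scale) in the capillary cells (filled circles) and in the whole library (open diamonds) of each group. Pericyte, smooth muscle, astrocyte and red cell markers were higher in capillary cells than in the whole libraries, and neuron, oligodendrocyte and microglia markers were lower.

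Genes of other cells were among those that varied most from cell to cell. After thinning each cell to 1500 UMIs, which kept 150 control and 197 tomatidine cells, the median Fano factor (variance over mean) of 3657 genes was 1.05 in control and 1.06 in tomatidine cells, close to pure counting noise. Among the 10 genes with the highest factor were Ptgds (69.7, mean of both libraries), Hbb-bs (44.1), Hba-a2 (20.4), Apod (13.3), Vtn (10.5), Hbb-bt (8.15), Apoe (6.84), Cst3 (6.71) and Mbp (5.13). Several of these are known from other cells, the haemoglobin genes from red cells, Vtn from pericytes, and Mbp from myelin. For Ptgds, which had means of 1.61 and 2.13 UMIs per thinned cell in control and tomatidine cells, the highest cell of each library had 155 and 114 UMIs. Slc2a1, the glucose transporter GLUT1, had a factor of 2.22. Cldn5, a rule gene whose spread the selection shapes, had 2.79. Both were below these 10 genes and above the median gene.

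The comparison of diets asked which genes of capillary cells differed between the libraries. A gene was called past the fold when its log2 CPM ratio, tomatidine over control, was at least 0.5 in size and the gene had at least 100 UMIs in both libraries together. Among 8395 genes, 270 were past the fold upward, or 3.22%, and 174 downward, or 2.07%. At these shares a short list would hold few or no members past the fold. Over the 11715 genes with at least 20 UMIs the median log2 ratio was 0.03, and 54.9% were higher in the tomatidine library. List medians below also use genes with at least 20 UMIs.

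Interferon response genes were higher in capillary cells of the tomatidine library. Of 67 listed genes measured, 58 had a higher CPM with tomatidine and 9 a lower one, and the median log2 ratio was 0.34 against 0.03 for all genes. Of the 60 with at least 100 UMIs, 18 were past the fold upward, or 30% against 3.22% of all genes, and none downward. Summed over the list, the level was 9191 CPM in control and 11330 CPM in tomatidine cells, a log2 ratio of 0.30 (0.27 to 0.33).

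The transcription factors of the list came first in the pathway. Irf7, the master regulator of type I interferon responses (chromosome 7, 141262706 to 141266481, minus strand, mm10), had 138 UMIs in control and 295 in tomatidine capillary cells, 70.6 and 130 CPM, a log2 ratio of 0.88 (0.59 to 1.19). Stat2, part of the complex with Irf9 that carries the type I signal to the nucleus, had 76 and 141 UMIs and a ratio of 0.68 (0.27 to 1.10). Nlrc5, the transactivator of MHC class I genes, had 40 and 97 UMIs and a ratio of 1.07 (0.52 to 1.64). Ifnar1, a chain of the type I interferon receptor, was nearer to the median of all genes, with 667 and 908 UMIs and a ratio of 0.23 (0.09 to 0.38).

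MHC class I genes and their loading machinery were among the members past the fold. H2-K1, a classical class I heavy chain, had 499 UMIs in control and 1021 in tomatidine cells, 255 and 451 CPM, a log2 ratio of 0.82 (0.67 to 0.98). H2-D1, the other classical heavy chain of this strain, had 199 and 404 UMIs, a ratio of 0.81 (0.56 to 1.06). H2-Q4, a non-classical gene, had 47 and 86 UMIs and a ratio of 0.66 (0.13 to 1.20). Tap1, a subunit of the peptide transporter, had 71 and 119 UMIs and a ratio of 0.53 (0.10 to 0.98), and Psmb8, a subunit of the immunoproteasome, had 116 and 203 UMIs and a ratio of 0.60 (0.26 to 0.94). B2m, the light chain of every class I molecule, had a ratio of 0.44 (0.28 to 0.59), below the fold. H2-Q7, which was not on the list, was among the 10 genes with the highest ratio of all, with 116 and 359 UMIs and a ratio of 1.42 (1.11 to 1.73). Class I genes are near-identical in sequence, so UMIs of H2-K1, H2-D1, H2-Q4 and H2-Q7 may be split between them.

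The antiviral effectors and the interferon-inducible GTPases made up most of the rest. Ifit1, Ifit2, Ifit3 and Ifit3b, whose proteins bind viral RNA, had log2 ratios of 0.80 (0.40 to 1.21), 0.61 (0.05 to 1.18), 0.82 (0.46 to 1.18) and 1.15 (0.56 to 1.78). Ifit3 and Ifit3b are close copies, and their UMIs of 97 and 198 and of 33 and 85 in control and tomatidine cells may be shared. Gbp4, a guanylate-binding protein, had 93 and 214 UMIs and a ratio of 0.99 (0.63 to 1.36). The immunity-related GTPases Igtp, Irgm2 and Iigp1 had ratios of 0.72 (0.32 to 1.13), 0.68 (0.34 to 1.03) and 0.94 (0.35 to 1.56). Ifitm1, which blocks viral entry, and Sp100, a nuclear body protein, had ratios of 0.51 (0.09 to 0.95) and 0.50 (0.27 to 0.74).

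Other effectors of the list did not differ by the fold. The most abundant members were Ly6a, with 1801 CPM in control and 2097 CPM in tomatidine cells and a log2 ratio of 0.22 (0.16 to 0.28), and Ly6e, with 1672 and 1980 CPM and a ratio of 0.24 (0.18 to 0.31). The lowest ratios among members with at least 100 UMIs were those of Ifngr2, a chain of the interferon-gamma receptor, at −0.29 (−0.76 to 0.19), and Dtx3l, a ubiquitin ligase, at −0.20 (−0.63 to 0.23). Both intervals include 0.

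**Figure D3:**
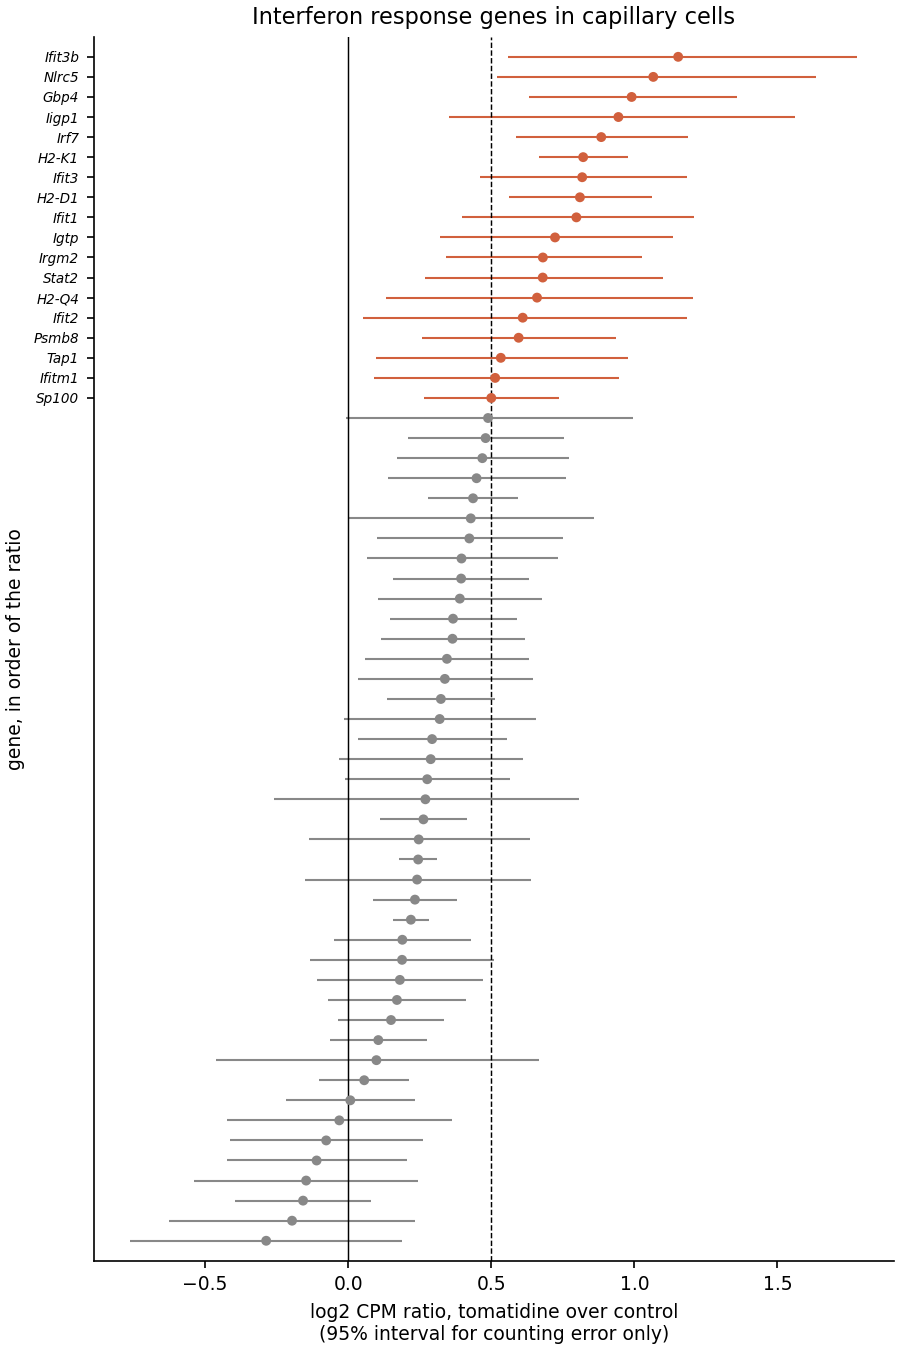
Log2 CPM ratio of tomatidine over control in capillary cells (horizontal axis) for the 60 interferon response genes with at least 100 UMIs, with 95% intervals for counting error; the dashed line is the fold of 0.5. The 18 genes past it are coloured and named, and none lies beyond −0.5.

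The interferon list was spread over the cells rather than held by a few. Per cell it had a median of 89.8 UMIs per 10000 in control, with a range of 17.4 to 237, and a median of 108 in tomatidine cells, with a range of 13.9 to 241. The ranges overlapped almost wholly, and the quartiles were 65.0 and 122 in control against 80.0 and 142 in tomatidine cells. The 10 cells with most UMIs held 26.7% of the list's UMIs in control and 20.2% in tomatidine cells. Leaving out, for each gene, the cell of each library with most of its UMIs gave a list median of 0.37, and restricting the cells to those with at least 1 Y-linked UMI gave 0.35. Among the 40 control and 63 tomatidine cells with under 20 pericyte UMIs per 10000, the median was 0.20, and Tap1 and Ifitm1 had ratios below 0.

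The list did not have the same sign in every cell type. In venous cells its median log2 ratio was 0.34 over 40 genes, with 29 higher. In arterial cells it was −0.43 over 42 genes with 14 higher, with 4 control cells behind it, and in oligodendrocytes −0.24 over 66 genes with 14 higher. Differences between the cell types were not tested.

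**Figure D4:**
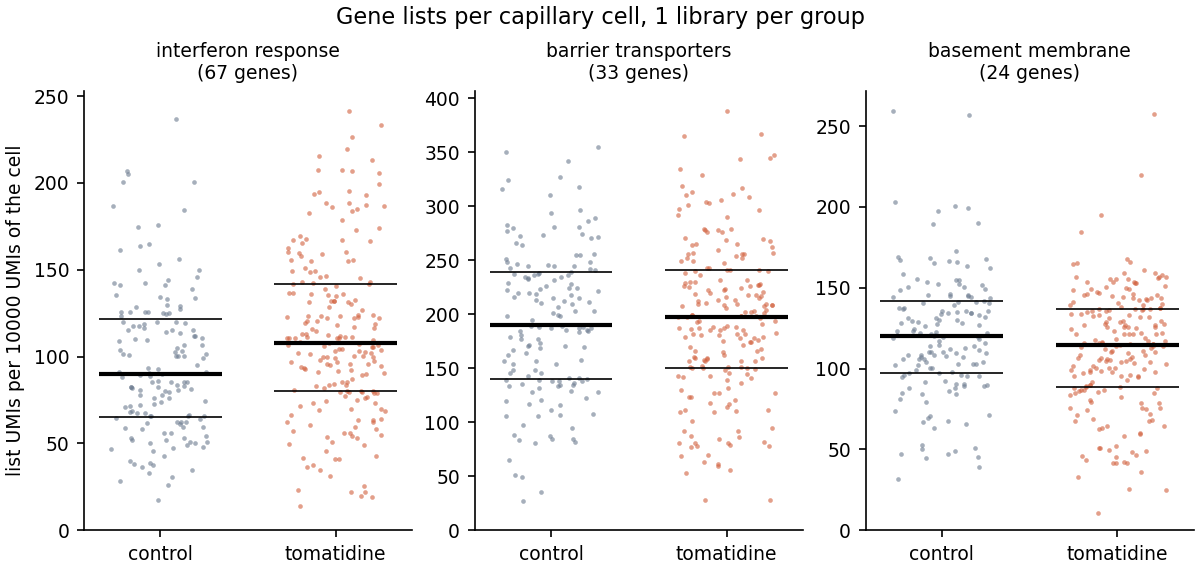
UMIs of 3 gene lists per 10000 UMIs of each capillary cell (vertical axis), 1 point per cell, with the median (thick line) and quartiles (thin lines) of each library. The interferon median was 89.8 in control and 108 in tomatidine cells, and the barrier transporter and basement membrane values overlapped closely.

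The promoters of the interferon genes are shown because many members were higher together. RefSeq windows of 300 bases (GRCm38.p6, from 250 bases before to 50 after a start site) were available for 52 of the 67 genes. The core of the interferon-stimulated response element, which is GAAA, any 2 bases and GAAA again, was sought on both strands. It was present for 23 of these 52 genes, or 44.2%, and for 3.99% of the 27025 genes with a window. It was present for 6 of the 15 genes past the fold with a window and for 15 of the 33 other members with at least 100 UMIs, so the match was not more frequent among the members past the fold. Windows of 3 of these 6 genes follow, 5′ to 3′ on the gene's strand, with the matches in capitals (a match on the opposite strand begins and ends with TTTC). The Ifit3b window is chr19:34607707-34608006 on the plus strand, that of Ifit1 chr19:34640639-34640938 on the plus strand, and that of Igtp chr11:58199306-58199605 on the plus strand.
Ifit3b: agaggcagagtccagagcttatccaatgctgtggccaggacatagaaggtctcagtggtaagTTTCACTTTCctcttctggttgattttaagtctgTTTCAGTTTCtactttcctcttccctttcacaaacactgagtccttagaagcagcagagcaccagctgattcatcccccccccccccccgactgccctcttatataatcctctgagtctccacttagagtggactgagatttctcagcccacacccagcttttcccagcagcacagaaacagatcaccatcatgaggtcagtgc
Ifit1: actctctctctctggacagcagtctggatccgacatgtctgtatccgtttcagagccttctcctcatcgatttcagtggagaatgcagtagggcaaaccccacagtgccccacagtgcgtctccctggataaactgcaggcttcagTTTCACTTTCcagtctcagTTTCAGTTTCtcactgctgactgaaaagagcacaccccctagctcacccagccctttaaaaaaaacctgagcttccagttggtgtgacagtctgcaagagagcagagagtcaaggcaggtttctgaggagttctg
Igtp: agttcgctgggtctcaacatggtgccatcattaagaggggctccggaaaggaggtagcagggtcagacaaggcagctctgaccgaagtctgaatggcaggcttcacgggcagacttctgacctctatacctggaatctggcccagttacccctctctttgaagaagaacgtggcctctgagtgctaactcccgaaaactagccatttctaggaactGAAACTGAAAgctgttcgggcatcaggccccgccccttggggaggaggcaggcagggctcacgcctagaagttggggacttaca
The Ifit3b and Ifit1 windows each held 2 matches and the Igtp window 1, which lay 34 bases before the start site at its first base.

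Clock genes also had several members past the fold. The core clock is a loop in which Clock and Bmal1 activate the Per and Cry repressors and the output factor Dbp through E-boxes. Of 18 clock genes measured, 10 were higher and 8 lower, and the median log2 ratio was 0.20. Past the fold were 5 of 14, all upward, or 35.7% against 3.22% of all genes. Ciart, a repressor of the loop, had 44 UMIs in control and 112 in tomatidine cells, a ratio of 1.14 (0.62 to 1.67). The repressors Per2 and Per3 had ratios of 0.67 (0.23 to 1.11) and 0.62 (0.15 to 1.10), Bhlhe41 had 0.54 (0.10 to 0.99), and Dbp, with 537 and 895 UMIs, had 0.53 (0.37 to 0.68). Per1, another repressor, had lower CPM in the tomatidine library, with 499 and 490 UMIs and a ratio of −0.24 (−0.42 to −0.06), and Rora, a nuclear receptor that activates the loop, had −0.47 (−0.72 to −0.22). In cells with under 20 pericyte UMIs per 10000 the median of the list was −0.01. The clock list was not higher in capillary cells alone. Its median was 0.62 in arterial cells, with 8 of 10 genes higher, and 0.43 in venous cells, with 5 of 9 higher. In oligodendrocytes it was 0.15, with 14 of 18 higher. These differences between cell types were not tested.

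The promoter of Ciart is shown for its E-boxes. The letters CACGTG, which read the same on both strands, were present in the windows of 5 of 16 clock genes, or 31.2%, and of 8.09% of all genes, and in 2 of the 4 clock genes past the fold with a window. The Ciart window (chr3:95882179-95882478, minus strand, GRCm38.p6) held 3, in capitals.
Ciart: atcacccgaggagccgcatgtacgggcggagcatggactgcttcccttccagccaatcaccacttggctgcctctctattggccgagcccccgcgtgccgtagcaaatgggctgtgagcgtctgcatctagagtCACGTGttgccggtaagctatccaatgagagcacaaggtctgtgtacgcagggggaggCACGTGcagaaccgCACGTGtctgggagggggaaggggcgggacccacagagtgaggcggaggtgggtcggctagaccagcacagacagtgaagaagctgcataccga

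Barrier genes outside the rule were close to the same level in both libraries. None of 32 blood-brain barrier transporters with at least 100 UMIs was past the fold, near the 3.22% upward and 2.07% downward of all genes. Their median log2 ratio was 0.01, with 19 higher and 13 lower. Slc2a1, the glucose transporter GLUT1, had 7121 UMIs in control and 7715 in tomatidine cells, 3644 and 3409 CPM, a ratio of −0.10 (−0.14 to −0.05). Slc7a5, the large neutral amino acid transporter, had 1824 and 2023 CPM and a ratio of 0.15 (0.09 to 0.21). The organic anion transporters Slco1c1, which carries thyroid hormone, and Slco1a4 had ratios of −0.06 (−0.13 to 0.01) and 0.01 (−0.06 to 0.09). At the ends of the list stood the fatty acid transporter Slc27a1, at −0.48 (−0.74 to −0.22), and Slc6a9, a glycine transporter, at 0.40 (−0.11 to 0.92). The transporters Mfsd2a, Slc16a1 and Slc38a5 are rule genes and were left out of these values. As a description, Mfsd2a had 336 CPM in control and 252 CPM in tomatidine cells. Slc16a1 had 602 and 552 CPM, and Slc38a5 had 94.2 and 121.5 CPM.

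Junction genes differed as little. Of 20 tight junction genes apart from Cldn5, 11 were higher and 9 lower, and the median log2 ratio was 0.03. None of 18 was past the fold, near the 3.22% upward and 2.07% downward of all genes. Cldn5, a rule gene, had 6374 UMIs in control and 8249 in tomatidine cells, a ratio of 0.16 (0.11 to 0.21), given as a description. Ocln, the tight junction protein occludin, had 629 and 730 UMIs and a ratio of 0.00 (−0.15 to 0.16). Tjp1, the scaffold ZO-1, had 1277 and 1431 UMIs and a ratio of −0.05 (−0.16 to 0.06). Of 19 adherens junction genes, 13 were higher, with a median of 0.07 and none past the fold. Ctnnb1, β-catenin, had a ratio of 0.18 (0.10 to 0.27), and the rule gene Cdh5, VE-cadherin, had 775 and 961 UMIs and a ratio of 0.10 (−0.04 to 0.24).

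The signalling lists that maintain barrier endothelium had medians near that of all genes. Wnt and Norrin genes had a median log2 ratio of 0.01, with 15 of 25 higher. None of 23 was past the fold, near the 3.22% upward and 2.07% downward of all genes. The Wnt targets Apcdd1 and Lef1 had ratios of 0.42 (0.27 to 0.56) and 0.24 (0.11 to 0.38). Among the 23 genes with at least 100 UMIs, Sox7, an endothelial transcription factor, had the highest ratio, 0.50 (0.19 to 0.81), just inside the limit at 0.4987, and Reck, a co-receptor for Wnt7, the lowest, −0.35 (−0.53 to −0.17). TGF-beta and BMP genes had a median of 0.00, Notch genes −0.05 and caveolae and transcytosis genes 0.05, with none past the fold in any of these lists. Cav1, the main coat protein of caveolae, had 521 CPM in control and 635 CPM in tomatidine cells, a ratio of 0.29 (0.17 to 0.40), and the Notch ligand Dll4 had −0.36 (−0.60 to −0.12).

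VEGF and angiopoietin genes had members past the fold in both directions. Of 14 genes, 3 were past it downward, or 21.4% against 2.07% of all genes, and 1 upward, or 7.14% against 3.22%. The list median was −0.06. Angpt2, a vessel-destabilising ligand of Tek (chromosome 8, 18690263 to 18741562, minus strand, mm10), had 137 UMIs in control and 70 in tomatidine cells, a log2 ratio of −1.18 (−1.62 to −0.75). Vegfa, the main angiogenic ligand, and Apln, the ligand apelin, had ratios of −0.88 (−1.44 to −0.33) and −0.74 (−1.30 to −0.18). Nrp2, a co-receptor for VEGF family ligands, had 95 and 196 UMIs and a ratio of 0.83 (0.47 to 1.20). The receptor genes Kdr, Tek and Tie1 had −0.28 (−0.41 to −0.15), 0.09 (−0.04 to 0.23) and 0.21 (0.05 to 0.37).

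Cdkn1a, which encodes the cell cycle inhibitor p21 and marks senescent cells, was lower in the tomatidine library. It had 299 UMIs in control and 234 in tomatidine capillary cells, 153 and 103 CPM, a log2 ratio of −0.57 (−0.82 to −0.31) (chromosome 17, 29090976 to 29100727, plus strand, mm10). At least 1 UMI was found in 90 of 155 control cells, 58.1% (49.9 to 65.9), and in 95 of 208 tomatidine cells, 45.7% (38.8 to 52.7), a difference of −12.4 points (−22.4 to −2.00). The share in oligodendrocytes was 5.23% in control and 4.01% in tomatidine cells, at median depths of 5295 and 4987.5 UMIs. Positive capillary cells were deeper, with median depths of 11878.5 and 11722 UMIs against 5796 and 4642 UMIs in negative cells. They also held more RNA of some other cells and less of others. All 10 pericyte genes had a higher CPM in positive than in negative cells, with a median log2 ratio of 0.99 in control and 0.38 in tomatidine cells, against −0.04 and −0.06 for all genes. Of 6 smooth muscle genes, 6 were higher in control and 5 in tomatidine cells, with medians of 1.58 and 0.29. All 4 red cell genes were higher in both libraries, with medians of 0.63 and 1.61. Astrocyte genes had medians of −0.39 in control and 0.62 in tomatidine cells, and choroid plexus genes 2.65 and −0.61. Oligodendrocyte genes had medians of −0.27 and −0.24, with 2 of 8 higher in each library. Neuron genes had −0.06 and −0.36, and microglia genes −0.86 and 0.07. Of 29 endothelial genes outside the rule, 29 were higher in control and 26 in tomatidine cells, with medians of 0.25 and 0.19. The part of other cells' RNA in the Cdkn1a values was not tested. Thinned to 1500 UMIs, without 5 control and 11 tomatidine cells that were shallower, the expected shares were 18.9% and 13.98%, and the difference of −4.94 points (−13.1 to 2.83) was within counting error. The 10 cells with most UMIs held 34.5% of Cdkn1a UMIs in control and 28.6% in tomatidine cells. A cell had at most 14 and 10 UMIs.

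Cdkn2a, the locus of p16, was not detected in capillary cells. It had UMIs in 0 of 155 control cells and 0 of 208 tomatidine cells, which allows shares of cells with a UMI of up to 2.35% and 1.76% by the exact binomial interval. This limits detection at these depths and not the share of cells that express the gene. Oligodendrocytes had it in 1.24% and 0.862% of cells. Of the 25 p53 targets and cell cycle inhibitors measured, 11 were higher and 14 lower, and the median log2 ratio was −0.07. Past the fold, beside Cdkn1a, was Pmaip1, the pro-apoptotic p53 target Noxa, with 142 UMIs in control and 89 in tomatidine cells and a ratio of −0.89 (−1.28 to −0.49), so 2 of 18 or 11.1% were past it downward against 2.07% of all genes. Bax and Cdkn1b, p27, had ratios of 0.03 (−0.24 to 0.30) and 0.08 (−0.16 to 0.33).

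Secretory and adhesion genes linked to senescence had a list median of 0.04, with 10 of 19 higher, and the median was −0.18, with 5 of 18 higher, when other cell types were excluded 10 times over. Icam1, the leukocyte adhesion molecule that cytokines induce on endothelium (chromosome 9, 21015985 to 21028817, plus strand, mm10), had 54 UMIs in 30 control cells and 292 UMIs in 55 tomatidine cells, a log2 ratio of 2.22 (1.80 to 2.67). Of the tomatidine UMIs, 136 came from 1 cell, and without the top cell of each library the ratio was 1.65. In cells with under 20 pericyte UMIs per 10000 it was −0.59. Spp1, osteopontin, had 82 and 22 UMIs and a ratio of −2.11 (−2.86 to −1.42), with 46 of the control UMIs in 1 cell. The abundant members Cxcl12, a chemokine of capillary endothelium, and Igfbp7 had ratios of −0.06 (−0.12 to −0.01) and −0.21 (−0.28 to −0.13).

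Stress and metabolic lists had at most 2 members past the fold each. Ddit4, an inhibitor of mTORC1 that stress induces, had 645 UMIs in control and 492 in tomatidine cells, a log2 ratio of −0.60 (−0.77 to −0.43). It was the 1 of 15 ATF4 and integrated stress response genes past the fold, or 6.67% against 2.07% of all genes downward, and the list median was 0.04. Immediate early genes had a median of −0.04, with Ier3 at 0.53 (0.33 to 0.72) and Egr3 at −0.57 (−1.14 to −0.01) past the fold, 1 of 20 in each direction. Egr3 was at 0.74 with each cell weighted equally, and in cells with under 20 pericyte UMIs per 10000 it was at 0.77 and the list median at 0.24. Lipid and energy genes had a median of −0.03, with Pfkfb3, a driver of glycolysis, at 0.55 (0.11 to 1.0) and Lss, an enzyme of sterol synthesis, at −0.50 (−1.10 to 0.09), past the fold, 1 of 19 in each direction or 5.26%, and Lss was at 0.11 under the same limit on pericyte UMIs. Glucocorticoid response genes had a median of −0.04 with Cdkn1a the 1 member of 12 past the fold, or 8.33%. The shares of all genes were 3.22% upward and 2.07% downward. Mitophagy and heat shock genes had medians of 0.02 and −0.08 and none past it.

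Mitochondrial transcripts and most basement membrane genes were lower in the tomatidine library. All 13 mitochondrially encoded genes were lower, with a median log2 ratio of −0.25 and none past the fold, and the median was −0.41 in cells with under 20 pericyte UMIs per 10000. Their sum was 8700 CPM in control and 7176 CPM in tomatidine cells, a log2 ratio of −0.28 (−0.31 to −0.25). The 13 genes share 1 genome and cannot count as separate observations. Mitochondrial RNA is also an index of cell quality, and its part in the other results was not tested. Nuclear respiratory chain genes had a median of −0.07, with 27 of 91 higher, and Ndufb2 at −0.53 (−1.04 to −0.02) and Ndufb4 at −0.50 (−0.91 to −0.10) were past the fold, 2 of 85 or 2.35%, near the 2.07% of all genes. Of 24 basement membrane and integrin genes, 19 were lower, with a median of −0.09 and none past the fold, and the median was −0.29 with exclusion of other cell types at 10 times. In cells with under 20 pericyte UMIs per 10000 it was −0.06, with 9 of 20 higher. Fn1, fibronectin, had 1801 and 1533 CPM and a ratio of −0.23 (−0.30 to −0.16), and Col4a2, a collagen IV chain, had −0.33 (−0.51 to −0.15).

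Genes of the other vessel types also differed between the libraries within the capillary cells. Of 14 venous genes outside the rule, 12 were higher in the tomatidine library, with a median log2 ratio of 0.39, and 4 of 11 were past the fold upward, or 36.4% against 3.22% of all genes. They were Icam1, the lysosomal peptidases Prcp and Ctsc, at 0.74 (0.23 to 1.27) and 0.52 (0.18 to 0.86), and Il1r1, the interleukin-1 receptor, at 0.51 (0.08 to 0.95). Arterial genes outside the rule had a median of −0.23, with 3 of 16 higher and none past the fold, and its 2 most abundant genes, Clu and Ltbp4, had ratios of −0.27 (−0.34 to −0.20) and 0.02 (−0.06 to 0.09). In cells with under 20 pericyte UMIs per 10000 the arterial median was 0.13. Capillary genes outside the rule had a median of 0.14, with 9 of 12 higher, among them Itm2a at 0.26 (0.20 to 0.31). With exclusion of other cell types at 10 times instead of 3, the venous median was 0.013 and the capillary median 0.036.

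**Figure D5:**
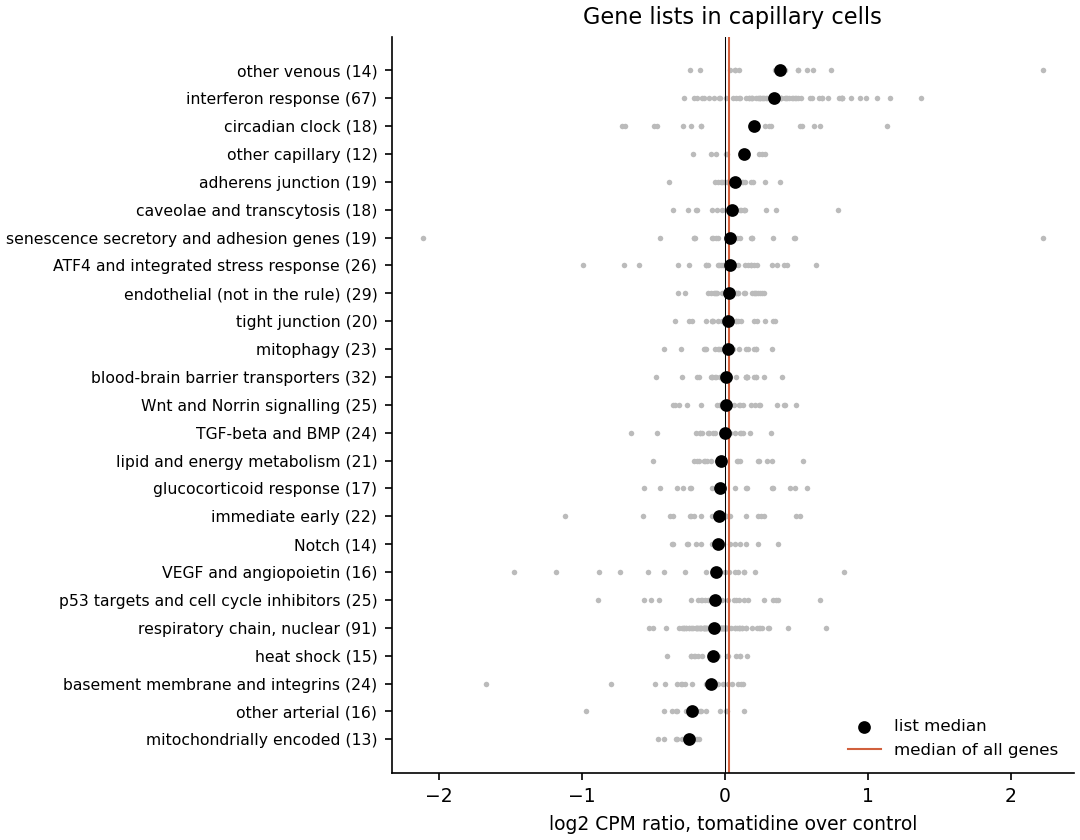
Log2 CPM ratio of tomatidine over control in capillary cells (horizontal axis) for the members of each gene list with at least 20 UMIs (grey points; number in parentheses), the list median (black) and the median of all genes (vertical coloured line, 0.03). The interferon, clock and other venous lists had medians of 0.34, 0.20 and 0.39, and the barrier lists lay near 0.

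The genes at both ends of the ratio included genes known from other cells, and for some of them a single cell held much of the count. At the upper end stood Sst (3.01), Lyz2 (2.79), Npy (2.52), Icam1 (2.22), Rab3b (2.19), Nxph1 (1.82), H2-Q7 (1.42), Vstm2a (1.31), Zcchc12 (1.28) and Gad2 (1.24). Sst, Npy and Gad2 are known from interneurons and Lyz2 from myeloid cells. Of the 651 Sst UMIs in tomatidine capillary cells, 349 came from 1 cell, and the ratio was −0.90 when other cell types were excluded 10 times over instead of 3. Lyz2 and Npy were also below 0 there, at −0.83 and −1.23, and in cells with under 20 pericyte UMIs per 10000 Gad2 was at −0.36. At the lower end stood Ttr (−6.63), Spp1 (−2.11), Prkcd (−1.87), Igfbp2 (−1.80), Htr2c (−1.45), Scn4b (−1.39), Enpp2 (−1.34), Gss (−1.33), Aldh1l1 (−1.31) and Angpt2 (−1.18). Ttr, the thyroxine carrier made by the choroid plexus, had 7093 UMIs in 142 control cells, 6121 of them in 1 cell, and 83 UMIs in 53 tomatidine capillary cells. Its level was also lower with tomatidine in oligodendrocytes (1681 and 108 CPM), arterial cells (405 and 34.8 CPM) and venous cells (633 and 55.3 CPM). Scn4b turned to 0.53 without the top cell of each library, and Enpp2 to 0.28 in cells with under 20 pericyte UMIs per 10000. H2-Q7 was spread more evenly, over 55 control and 111 tomatidine cells, with at most 17 UMIs in a cell.

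Capillary cells were also set beside arterial and venous cells, in edgeR's quasi-likelihood fit of UMIs summed by vessel type and library, with library as a term and Benjamini-Hochberg adjustment at 0.05. The types were selected on genes of the same cells, so the calls describe how the selected cells differ and support nothing further. The 22 rule genes were left out. Against arterial cells, 215 of 7214 genes were higher in capillary cells, or 2.98%, and 384 lower, or 5.32%. Against venous cells, 93 were higher, or 1.29%, and 172 lower, or 2.38%. The fit rested on 4 arterial and 14 venous control cells and on 20 and 41 tomatidine cells, with 2 residual degrees of freedom.

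The genes called higher than in arterial cells with the largest fitted fold were Ggt1, Slc7a5, Kcnj8, Sst, Ddc, Kdr, Ctla2a, Abcc9, Rab11fip1 and Hmcn1. All but Kdr had 0 UMIs in the control arterial cells. Ggt1 also had 0 in the tomatidine arterial cells, so its fitted fold is not a measured size. Of the 651 Sst UMIs in tomatidine capillary cells, 349 were in 1 cell. Ddc, aromatic amino acid decarboxylase, had 147 CPM in control and 146 CPM in tomatidine capillary cells, 0 and 6.97 CPM in arterial cells and 35.8 and 27.6 CPM in venous cells. Kcnj8 and Abcc9 are potassium channel genes known from pericytes. Against venous cells the corresponding genes were Ednra, Naalad2, Rasl12, Art3, Perp, Tbxa2r, Plxdc1, Klhl23, Pla1a and Abcc9. Ednra, Naalad2 and Rasl12 had 0 UMIs in the venous cells of both libraries, so their fitted folds are not measured sizes. Ednra had 35.8 and 42.0 CPM in control and tomatidine capillary cells, against 180 and 87.1 CPM in arterial cells. Rasl12 had 33.8 and 25.6 CPM in capillary cells, against 405 and 216 CPM in arterial cells. Art3 had 120 and 136 CPM in capillary cells and 0 and 5.53 CPM in venous cells.

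Barrier transporters were among the genes called. Of 32, 16 were called higher than in arterial cells, where 2.98% of all genes were, and none lower. Against venous cells 4 were called higher, where 1.29% of all genes were, and 1 lower. Whether the contrasts differ was not tested. Slc7a5 had 1824 CPM in control and 2023 CPM in tomatidine capillary cells, 0 and 83.6 CPM in arterial cells and 961 and 464 CPM in venous cells. Tfrc, the transferrin receptor that takes up iron, was called in both contrasts, with 238 and 240 CPM in capillary, 45.1 and 20.9 CPM in arterial and 89.6 and 66.3 CPM in venous cells. Slc2a1 was called in neither, which does not show equal levels, with 4775 and 2790 CPM in arterial and 5971 and 5306 CPM in venous cells. Kdr, the main VEGF receptor, had 526 and 434 CPM in capillary, 22.5 and 20.9 CPM in arterial and 352 and 553 CPM in venous cells.

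Vessel-type genes outside the rule followed the selected types. Of 18 other arterial genes, 14 were called lower in capillary than in arterial cells, where 5.32% of all genes were. Of 13 other venous genes, 11 were called lower in capillary than in venous cells, where 2.38% of all genes were. Gja4, the arterial gap junction protein connexin 37, had 88.0 and 68.1 CPM in capillary and 563 and 345 CPM in arterial cells. Ackr1, a chemokine-binding receptor of venules, had 19.5 and 17.2 CPM in capillary and 806 and 614 CPM in venous cells. Icam1 had 496 and 680 CPM in venous cells, against 27.6 and 129 CPM in capillary cells. Cxcl12 was higher in capillary cells in both contrasts, with 2730 and 2615 CPM, against 158 and 359 CPM in arterial and 490 and 403 CPM in venous cells. Among Wnt targets called higher than in arterial cells were Lef1, with 400 and 473 CPM in capillary and 90.1 and 129 CPM in arterial cells, and Notum, with 152 and 148 CPM in capillary and 45.0 and 17.4 CPM in arterial cells.

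The largest differences from arterial cells came with RNA of mural cells. All 7 smooth muscle genes were called lower in capillary cells, against 5.32% of all genes, and their sum there of 596 and 555 CPM stood against 27030 and 16030 CPM in arterial cells. The 10 genes called lower with the largest fitted fold were Cnn1, Mrgprh, Pln, Cytl1, Susd5, Aoc3, Myom1, Fhl5, Acta2 and Tagln, and most are known from smooth muscle. Pericyte genes went the other way, with 7 of 9 called higher in capillary than in venous cells, against 1.29% of all genes. Against arterial cells 4 of 9 were called higher, where 2.98% of all genes were, and 2 lower. Against venous cells the 10 genes called lower with the largest fold were Col6a6, Lcn2, Adgrg6, Ch25h, Lama1, Ackr1, Cyp26b1, Cfb, Cd14 and Dcn. Lcn2, the iron-binding protein lipocalin 2, had 5.63 and 8.40 CPM in capillary and 1099 and 553 CPM in venous cells. How much of each difference lies in the endothelial cells was not tested.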

How the data were processed

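Pooled hippocampi of 4 mice per diet were fixed and profiled by the authors with probe-based single-cell RNA sequencing. The deposited matrices hold raw UMI counts per gene and cell. The submitters' processing notes name Cell Ranger 8.0.0 and build mm10, and the file headers name version 7.1.0. The matrices still hold 2 cells under 500 UMIs, so the authors' limit on UMIs per cell was applied after them. Here no doublet caller was run. The 3-fold exclusion rested on 6 genes of other cell types, and capillary cells with many UMIs of other cells remained.

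Counts of capillary cells were summed per library and given as CPM, with exact conditional binomial intervals for log2 ratios, Clopper-Pearson intervals for shares and Newcombe intervals for their differences. Each group is 1 library of pooled mice, so diets were not tested. Vessel types were fitted with edgeR 4.0.16 (filterByExpr, TMM, quasi-likelihood) in R 4.3.3, with DESeq2 1.42.0 as an alternative, and the rest was computed with Python 3.11.15, numpy 2.4.6, scipy 1.17.1 and pandas 2.3.3. The fit was tested on simulated data, in which it missed most of the smaller changes. A gene not called in a vessel contrast is therefore not shown to be equal.

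Alternatives were stricter selection limits, part of the study's cell filters (over 250 genes, log10 genes per UMI over 0.8 and under 20% mitochondrial UMIs), other count minimums, TMM scaling, equal weights for cells and fits without a filter or library term.

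The members and gene lists were chosen with earlier results of these data known. Named were the rule genes, Cdkn1a, Cdkn2a, Ocln, Tjp1, the 10 genes at each end of a comparison, and of each list the members past the fold, those at its ends and up to 6 of the most abundant. Gene positions are from the GENCODE annotation of the mm10 assembly and promoter sequences from RefSeq. Symbols found more than once (6) were kept apart by identifier. A few genes that this rule names are not reported here.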

Additional observations from a re-analysis of the deposited data

Results flagged for a closer look

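The interferon response list differed in sign between cell types. Its median log2 ratio of tomatidine over control was 0.34 in capillary cells over 67 genes, −0.43 in arterial cells over 42 genes and −0.24 in oligodendrocytes over 66 genes. The arterial genes outside the rule had a median of −0.23 over 16 genes in capillary cells and 0.41 over 13 genes in venous cells. The 13 mitochondrially encoded genes had a median of −0.25 in capillary cells and 0.34 in venous cells. These differences were not tested, and the arterial and venous values of the control library come from 4 and 14 cells.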

How the results depend on the processing

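The number of genes past the fold was 444 (270 higher, 174 lower), or 5.29% of 8395 genes. In cells with under 20 pericyte UMIs per 10000 it was 280 (123 and 157), or 13.7% of the 2046 genes that could be compared. It was 1061 (625 and 436), or 12.6%, with each cell weighted equally. From 20 UMIs it was 1461 (865 and 596), or 12.5% of 11715 genes. From 200 UMIs it was 159 (83 and 76), or 2.8% of 5609 genes. It was 489 (362 and 127), or 5.8%, without the top cell of each gene and 442 (238 and 204), or 5.3%, with TMM scaling. The pericyte limit and the top-cell setting were chosen after seeing the data. Under the pericyte limit the list medians were 0.24 for immediate early, −0.013 for clock, 0.034 for other capillary, 0.13 for other arterial and −0.41 for mitochondrially encoded genes. With exclusion of other types at 10 times they were −0.29 for basement membrane, 0.036 for other capillary and 0.013 for other venous genes. The other 267 of 275 list values moved by at most 0.22. The sign changed in 38 of them, from 16 lists whose medians lay within 0.084 of 0, barrier transporters among them (0.01, and −0.14 under the pericyte limit).

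Of 818 values for 82 single genes, 139 moved and 15 changed sign. The latter were, with exclusion at 10 times, Sst (−0.90), Lyz2 (−0.83), Npy (−1.23), Kcnj8 (−0.34) and Scn4b (0.98), with an endothelial limit of 30 per 10000 Scn4b (0.98), and without top cells Scn4b (0.53). Under the pericyte limit they were Icam1 (−0.59), Gad2 (−0.36), Enpp2 (0.28), Ifitm1 (−1.06), Tap1 (−0.10), Egr3 (0.77) and Lss (0.11), and with cells weighted equally Egr3 (0.74). Against arterial cells 599 genes were called, and 358 with DESeq2, 924 with no filter and 913 with no library term. Against venous cells 265 were called, and 128, 478 and 409 under these settings. With exclusion at 10 times, where 3808 genes were tested instead of 7214, arterial calls were 214 higher and 257 lower, against 215 and 384. Venous calls were 126 higher and 125 lower, against 93 and 172. The share of higher calls was 45.4% against 35.9% for arterial and 50.2% against 35.1% for venous cells. It was 25.7% and 22.7% with DESeq2, 47.4% and 40.8% with no filter, and 44.0% and 38.6% with no library term. The cause of these changes was not tested. The shares kept their direction under every setting run, with Cdkn1a between −13.1 and −3.55 points. No paired analysis was possible because each diet has 1 library.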
